A study of Homo sapiens with 12 samples.

Results

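The Notch gene set described here held 9 of the 18417 genes measured in A172 cells: the receptors NOTCH1, NOTCH2 and NOTCH3, the ligands JAG1, JAG2 and DLL1, and the effectors HES1, HEY1 and HEY2. Members were chosen by gene symbol from the probe sets of the array, a probe set being a group of probes that together read 1 gene. Where a gene had several probe sets, the rule selected on the mean level over the 12 arrays and kept the highest. Each of the 9 members had a single probe set that carried its symbol alone, so that no measured level entered the choice. The set was drawn up, and HES1 placed at its head, with earlier results of these data known, so that the p-values given for it describe these arrays and are not independent evidence.

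A172 cells grow attached to the dish and come from a human glioblastoma, and their transcript levels were read on GeneChip Human Gene 1.0 ST arrays, 3 per group, from cultures harvested after 4 days. The wild-type group was untransfected and carried no vector. The mock group was stably transfected with the empty plasmid pcDNA3.1, and the groups clone 7 and clone 8 with the same plasmid carrying hHSS1, fused at its C-terminal end to a 6-His tag. The methods of the study give the drug G-418 for the upkeep of stable clones. hHSS1 is now named EMC10 and encodes a protein of the EMC, a complex in the membrane of the endoplasmic reticulum, and also a secreted form. The mock group is 1 line and each clone is 1 line, so that p-values measure the spread between cultures, and the effects of vector, drug selection and the making of a line cannot be told apart in a difference from wild-type. Levels come from whole cultures, in which fewer cells expressing a gene and less RNA per cell cannot be told apart.

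Notch is a signalling pathway between touching cells. A ligand on one cell (a Jagged or Delta-like protein) binds a Notch receptor on its neighbour, the receptor is cut by an ADAM protease and then by gamma-secretase, and the freed intracellular domain enters the nucleus, where it joins the DNA-binding protein RBPJ and a Mastermind coactivator. The best known genes switched on in this way encode the transcriptional repressors of the HES and HEY families. In the brain the pathway is known for holding neural progenitors undifferentiated and for its part in astrocyte formation, and it is active in many gliomas.

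The arrays were first compared with their labels. EMC10 lay between 11.57 and 12.30 on the log2 scale on the 6 clone arrays, between 10.43 and 11.13 on the wild-type arrays and between 9.20 and 9.51 on the mock arrays, so that the 3 kinds of sample did not overlap. The mock line had less EMC10 than wild-type (2.65-fold, limma adjusted p = 0.00285). Over the 2000 genes with the largest variance, each centred on its mean over the arrays, wild-type arrays correlated with each other at Pearson r of 0.86 to 0.88 and mock arrays at 0.87. The array labelled clone 7 replicate 3 correlated with clone 7 replicates 1 and 2 at r of -0.38 and -0.40, and with clone 8 replicates 1 and 2 at 0.83 and 0.93. The array labelled clone 8 replicate 3 correlated with clone 8 replicates 1 and 2 at -0.27 and -0.37, and with clone 7 replicates 1 and 2 at 0.88 and 0.87. Each of these 2 arrays thus went against its label. They were kept under their labels here, and each result on a single clone is also given without them. Since they were left out for being unlike their groups, the spread without them is smaller by construction. Of 13 measured astroglial and glioma markers, 5 had a mean under the lower quartile of the arrays (median 7.04 on the log2 scale). The defining astroglial markers S100B and AQP4 lay under it on each of the 12 arrays. GFAP had a mean level of 8.71, with 0 arrays under that limit, but only 40.8% of genes had a lower mean. A level over the limit does not by itself show expression, so whether these cells express GFAP stays undecided here. VIM and CD44 had mean levels of 13.60 and 13.43. Nestin (NES), a marker of neural progenitors, was lower in both clones than in mock by a log2 difference of -0.73 (limma adjusted p = 5.89e-05), and than in wild-type by -1.17 (limma adjusted p = 9.75e-07). It was also lower in mock than in wild-type, by -0.44 (limma adjusted p = 0.00723). SOX2, of the same marker list, was lower in the clones than in mock by -0.32 (limma adjusted p = 0.0285) and than in wild-type by -0.59 (limma adjusted p = 0.000527). Of 26 measured markers of neurons, endothelium, leukocytes and fibroblasts, 0 passed both limits used below between the clones and mock. An unadjusted limma p under 0.05 was reached by 1. Past both limits, 2 were lower in mock than in wild-type and 3 lower in the clones than in wild-type. Over all genes, 0.728% passed both limits between the clones and mock. The share was 0.673% between mock and wild-type and 1.58% between the clones and wild-type. Without the 2 doubted arrays, 2 of the 26 were higher and 1 lower in clone 7 than in mock, 3 were lower in clone 8 than in mock, and 1 was higher and 3 lower in clone 8 than in clone 7, all past both limits. They were neuronal, leukocyte and fibroblast markers, and 0 endothelial markers passed the adjusted p in these fits (0 at an unadjusted limma p under 0.05). Without the doubted arrays, 399 of all 18417 genes (2.17%) passed both limits in clone 7 against mock. The number was 379 in clone 8 against mock and 617 (3.35%) between the clones. The part of such cell-state differences in the results below was not tested.

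**Figure D1:**
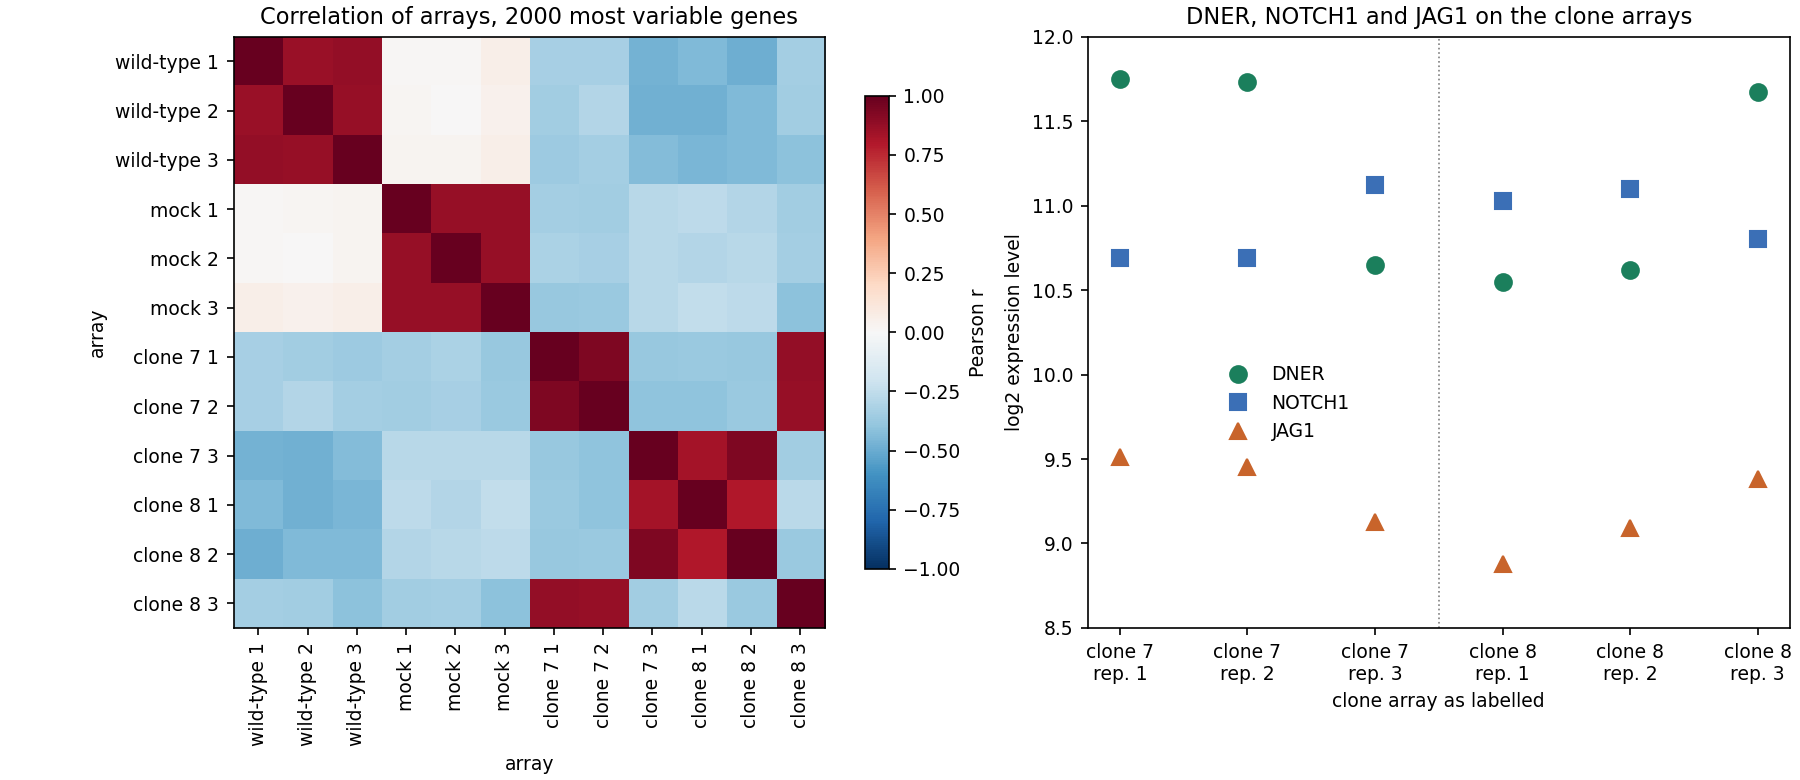
Left, Pearson r between each pair of the 12 arrays over the 2000 genes with the largest variance, centred per gene (colour from -1 to 1, rows and columns are arrays). Right, log2 expression level of DNER, NOTCH1 and JAG1 on the 6 clone arrays, 1 point per array, as labelled. The third array of each clone sits with the other clone, at 10.65 and 11.67 for DNER.

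The stretch of DNA just before a gene is one place where RBPJ can act on Notch target genes, so the upstream sequences of the effectors HES1 and HEY2 are shown beside that of the ligand JAG1. Promoters of 7 of the 9 members were in the RefSeq table used (assembly GRCh38.p14). Each window below holds the 250 bases before the gene start, read 5′ to 3′ on the strand of the gene, with the RBPJ core TGGGAA, or its reverse complement TTCCCA, in capitals. The HES1 window is chr3:194135898-194136147 on the plus strand, the HEY2 window chr6:125749382-125749631 on the plus strand, and the JAG1 window chr20:10674000-10674249 on the minus strand.
HES1: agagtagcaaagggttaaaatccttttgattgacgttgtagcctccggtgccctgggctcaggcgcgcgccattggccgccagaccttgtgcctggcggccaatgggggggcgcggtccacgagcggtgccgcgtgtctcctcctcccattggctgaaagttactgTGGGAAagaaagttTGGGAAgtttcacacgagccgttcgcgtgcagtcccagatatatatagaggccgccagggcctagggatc
HEY2: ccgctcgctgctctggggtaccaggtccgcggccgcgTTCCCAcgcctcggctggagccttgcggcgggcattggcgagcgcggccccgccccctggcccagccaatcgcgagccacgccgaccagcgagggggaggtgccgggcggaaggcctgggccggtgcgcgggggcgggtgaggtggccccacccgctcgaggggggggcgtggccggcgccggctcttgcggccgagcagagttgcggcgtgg
JAG1: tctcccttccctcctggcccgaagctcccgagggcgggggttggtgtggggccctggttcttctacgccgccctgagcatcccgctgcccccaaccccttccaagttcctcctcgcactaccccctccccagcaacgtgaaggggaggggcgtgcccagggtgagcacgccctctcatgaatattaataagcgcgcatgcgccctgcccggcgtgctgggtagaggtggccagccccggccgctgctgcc
HES1 held 2 RBPJ cores on its own strand, at positions -84 to -79 and -70 to -65 before the gene start, with 8 bases between them, while HEY2 held 1 on the opposite strand at -213 to -208. The first HES1 core and the HEY2 core each lay within the longer motif GTGGGAA, searched on both strands. HES1 and HEY2 were the 2 of the 7 member windows with a core, and NOTCH1, NOTCH2, NOTCH3, JAG1 and JAG2 held none. Of 35116 RefSeq promoter windows of the same length, 20.8% held the core on either strand, 5.43% held the longer motif and 2.9% held 2 or more cores. HES1 also held 3 N-box motifs (CACNAG) and 4 class C motifs (CACGNG), the sites that HES and HEY proteins themselves bind, of which 2 letter runs belong to both motifs. At least 1 N-box was in 32.0% and at least 1 class C motif in 26.7% of all windows, and shares with as many matches as HES1 were not computed. The JAG1 window held none of these letters and no E-box (CANNTG, in 61.8% of all windows). Of the member windows not shown, NOTCH3 held 1 letter run that is both N-box and class C motif. JAG2 held 2 class C motifs and 2 E-boxes, and NOTCH1 and NOTCH2 held none of the motifs. These are matches of letters, and no binding was measured. Sites outside the 250 bases were not searched.

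**Figure D2:**
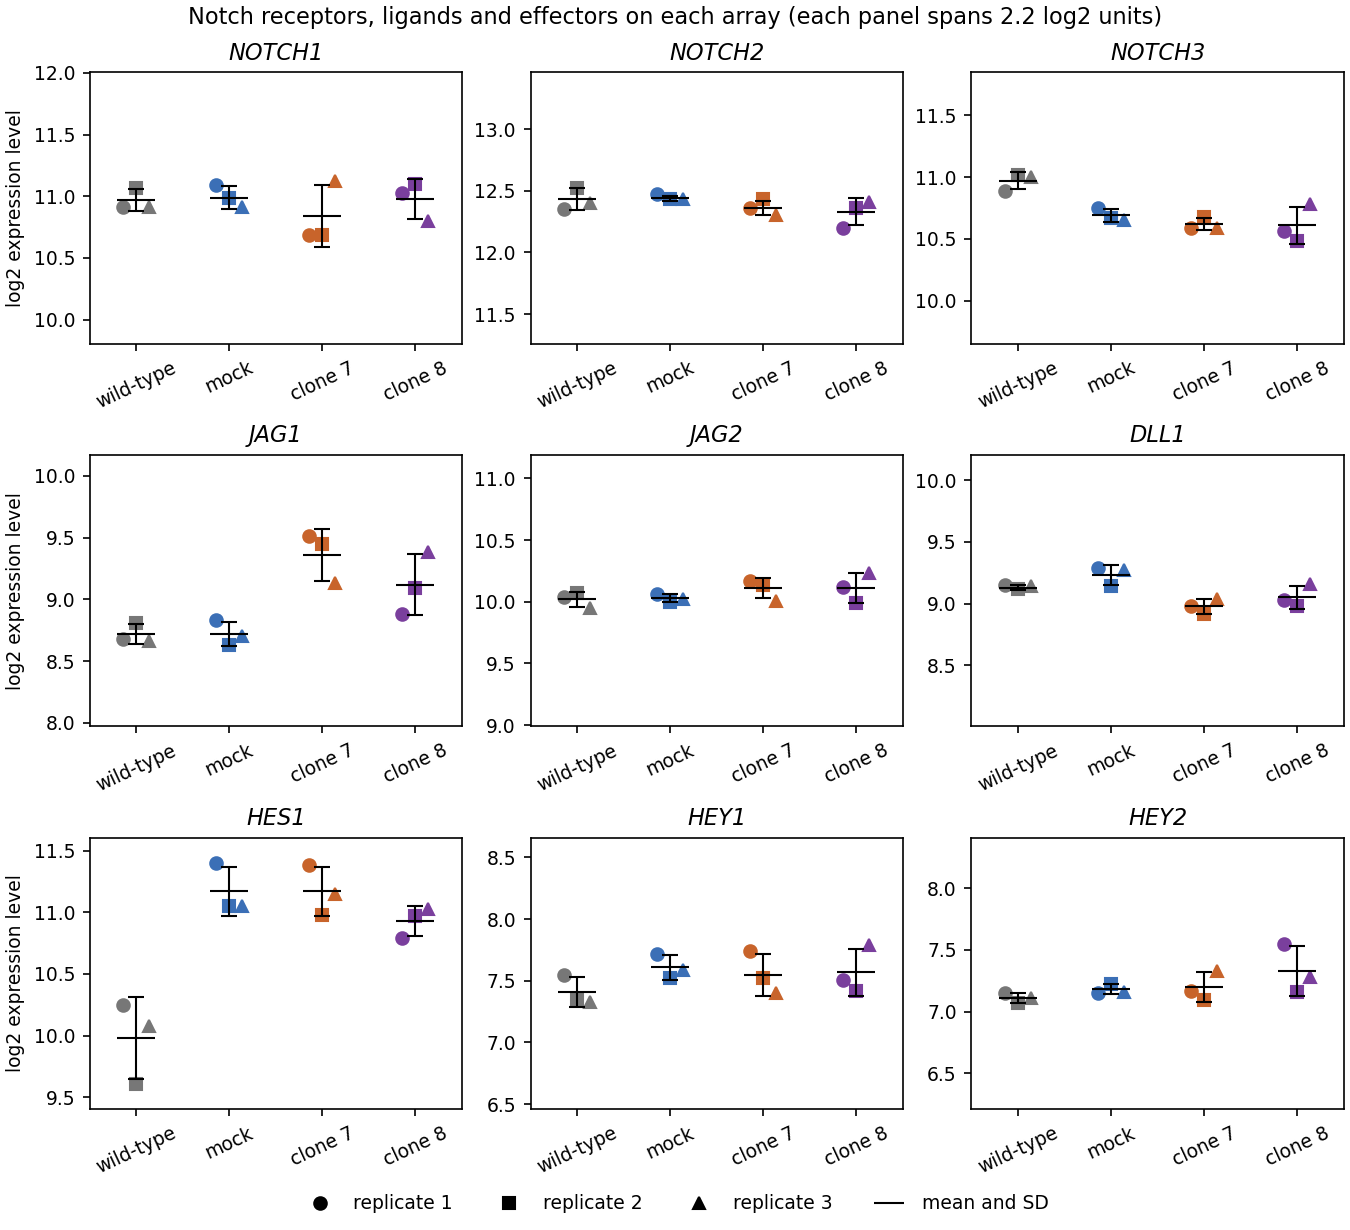
Log2 expression level (y axis) of the 9 Notch genes on each array, by group (x axis), with a symbol per replicate and the mean and SD of 3 arrays. HES1 on the 9 transfected arrays lies between 10.79 and 11.40, above the 3 wild-type arrays, and JAG1 on the 6 clone arrays lies between 8.88 and 9.51, above the 6 control arrays.

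In these cells HES1 was higher in each transfected line than in wild-type, empty-vector line included, while the ligand JAG1 was higher in the hHSS1 lines than in both controls. NOTCH3 was lower in the clones than in wild-type, and DLL1 lower in the clones than in mock by a small step. A gene was called changed at a Benjamini-Hochberg adjusted p under 0.05 from limma, adjusted over all 18417 genes of the comparison, together with a difference of at least 1.5-fold. Counts at the adjusted p alone are named as such, and errors on differences are standard errors. Except between the clones, counts at an unadjusted p under 0.05 are given without the share of all genes at that limit. They cannot be read as more or fewer than all genes show. Between both clones and mock, 0 of the 9 Notch genes changed, where 0.728% of all genes did (134 genes), and 2 were at an unadjusted p under 0.05. These 2, JAG1 and DLL1, also passed the adjusted p alone, against a background of 6.38% of all genes. Between mock and wild-type 1 of 9 changed (HES1, with a background of 0.673%), and 1 passed the adjusted p alone (2.24%). Between both clones and wild-type 1 changed (HES1, background 1.58%) and 3 passed the adjusted p alone (HES1, JAG1 and NOTCH3, background 9.95%). The median log2 difference of the 9 genes was -0.08 between the clones and mock, against 0.01 over all genes, and 0.09 between the clones and wild-type, against 0.03. The comparisons share the mock or the wild-type arrays, so that their counts are not independent of each other.

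**Figure D3:**
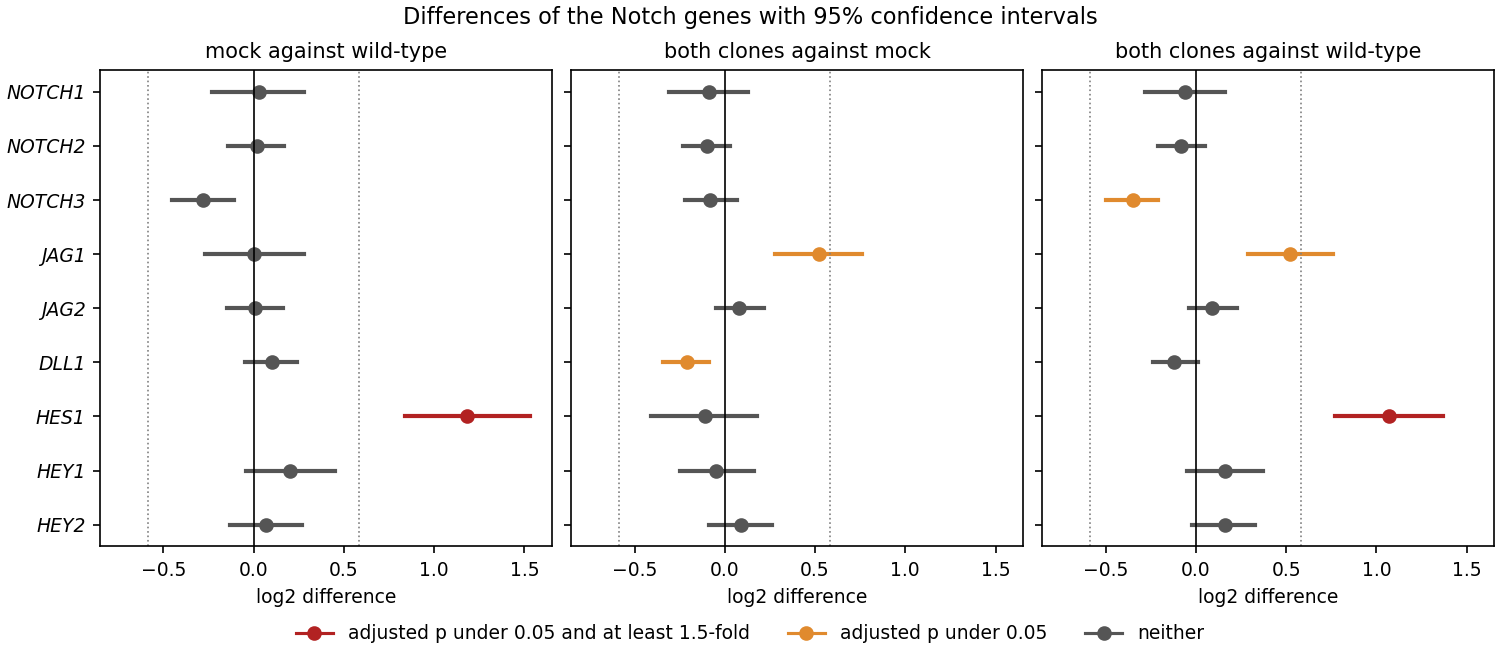
Log2 difference (x axis) of each Notch gene (y axis) in 3 comparisons, with 95% confidence intervals from the limma fit. Dotted lines mark 1.5-fold in each direction and colours mark which limits a gene passed. HES1 stands at 1.18 and 1.07 against wild-type and at -0.11 against mock, and JAG1 at 0.52 in both comparisons of the clones.

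Among the ligands, JAG1 (chromosome 20), which encodes Jagged1, gave the clearest difference between hHSS1 lines and controls. Its log2 level was 8.68, 8.81 and 8.66 on the wild-type arrays and 8.83, 8.63 and 8.70 on the mock arrays. It was 9.51, 9.45 and 9.13 on the arrays labelled clone 7, and 8.88, 9.09 and 9.38 on those labelled clone 8. The 6 clone arrays lay above the 6 control arrays without overlap, as did those of 2.55% of all genes. Both clones exceeded mock by a log2 difference of 0.52 ± 0.11 (1.43-fold, 95% confidence interval 0.28 to 0.76, limma adjusted p = 0.0151) and wild-type by 0.52 ± 0.11 (limma adjusted p = 0.0102). Mock and wild-type differed by 0.00 (interval -0.27 to 0.28). The call against mock rested on the mock arrays: without mock replicate 2 or mock replicate 3 the limma adjusted p rose above the limit, to at most 0.0968, with the difference still between 0.45 and 0.58 over the fits that left out 1 array. The call against wild-type was lost without wild-type replicate 3 (limma adjusted p = 0.0626).

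In a single clone JAG1 depended on how the doubted arrays were handled. As labelled, clone 7 exceeded mock by 0.64 ± 0.13 (1.56-fold, limma adjusted p = 0.0169), and JAG1 was the 1 of 9 Notch genes that changed there, against 0.7% of all genes. At the adjusted p alone it was also the 1 gene of 9, against 3.14%. That call was lost without mock replicate 2, mock replicate 3, clone 7 replicate 1 or clone 7 replicate 2, where the difference lay between 0.57 and 0.63. Clone 8 exceeded mock by 0.40 ± 0.13, which missed the limit (limma adjusted p = 0.0932). In that comparison 0 of 9 genes changed (background 0.76%) and 0 passed the adjusted p alone (5.09%), with 2 at an unadjusted p under 0.05. With the 2 doubted arrays left out, clone 7 stood 0.76 above mock (1.7-fold, limma adjusted p = 0.000171) and clone 8 stood 0.26 above it (limma adjusted p = 0.0593). JAG1 was then the 1 of 9 Notch genes that changed in clone 7, where 2.17% of all genes did, and 3 of 9 passed the adjusted p alone (JAG1, DLL1 and NOTCH1, background 14.3%). In clone 8 it was 1 of 9 (DLL1, background 13.7%). Clone 8 was then lower than clone 7 by -0.50 ± 0.09 (1.41-fold, limma adjusted p = 0.00325), where the labelled arrays gave -0.25 ± 0.13 (limma adjusted p = 0.62).

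DLL1 (chromosome 6), which encodes the ligand Delta-like 1, was lower in the clones than in mock by a log2 difference of -0.21 ± 0.06 (1.16-fold, limma adjusted p = 0.0466). Its levels were 9.15, 9.12 and 9.14 in wild-type, 9.29, 9.14 and 9.27 in mock, 8.98, 8.92 and 9.04 in clone 7, and 9.03, 8.98 and 9.16 in clone 8. The clone and mock arrays overlapped, since clone 8 replicate 3 lay above mock replicate 2. The call was lost in 9 of the 12 fits that left out 1 array, those without any wild-type or mock replicate, clone 7 replicates 1 and 2 and clone 8 replicate 1, with a limma adjusted p of up to 0.222. The difference was -0.25 without the 2 doubted arrays (limma adjusted p = 0.0089), and it passed the adjusted p in clone 7 (-0.28) and in clone 8 (-0.23). Against wild-type the clones differed by -0.12 (interval -0.24 to 0.01). JAG2 (chromosome 14), the gene of the ligand Jagged2, lay between 9.95 and 10.23 over the 12 arrays, and the clones differed from mock by 0.08 (interval -0.05 to 0.22) and from wild-type by 0.09 (interval -0.04 to 0.23). The ligands DLL3 and DLL4, which are outside the set, differed by 0.08 and 0.06 between the clones and mock and did not pass the test.

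Of the receptors, NOTCH3 (chromosome 19), best known from vascular smooth muscle, was lower in the transfected lines. Its log2 level was 10.89, 11.02 and 11.00 in wild-type, 10.75, 10.67 and 10.65 in mock, 10.59, 10.68 and 10.59 in clone 7, and 10.56, 10.48 and 10.78 in clone 8. The 9 transfected arrays lay below the 3 wild-type arrays, as did those of 3.7% of all genes. The clones were lower than wild-type by -0.35 ± 0.07 (1.28-fold, limma adjusted p = 0.00604), and the call held in each fit that left out 1 array. Mock differed from wild-type by -0.28 ± 0.08 (limma adjusted p = 0.102), which passed the limit without clone 8 replicate 3 (limma adjusted p = 0.0309) and without both doubted arrays (limma adjusted p = 0.0162). In the latter fit 2 of 9 Notch genes passed the adjusted p alone between mock and wild-type, HES1 and NOTCH3, against 7.07% of all genes. NOTCH3 also passed there with array weights and in the fit on the compared groups only (lowest limma adjusted p over all alternatives 0.00531). Between the clones and mock the difference was -0.08 (interval -0.22 to 0.07).

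NOTCH1 (chromosome 9), the receptor most studied in neural progenitors, gave no call with the arrays as labelled. Its level was 10.91, 11.07 and 10.91 in wild-type, 11.09, 10.99 and 10.91 in mock, 10.69, 10.69 and 11.12 in clone 7, and 11.03, 11.10 and 10.80 in clone 8. The low values were thus on clone 7 replicates 1 and 2 and, least low, clone 8 replicate 3. The clones differed from mock by -0.09 (interval -0.31 to 0.13) and from wild-type by -0.06 (interval -0.28 to 0.16). In the fit without the doubted arrays clone 7 was lower than mock by -0.30 ± 0.07 (1.23-fold, limma adjusted p = 0.0185) and clone 8 higher than clone 7 by 0.37 ± 0.08 (1.3-fold, limma adjusted p = 0.00852). NOTCH2 (chromosome 1) lay between 12.20 and 12.52 and differed by -0.10 between the clones and mock (interval -0.23 to 0.03) and by 0.02 between mock and wild-type (interval -0.14 to 0.17). Its value is uncertain, because NOTCH2 has the closely related genes NOTCH2NLA and NOTCH2NLB, which resemble a part of it and with which it also shares a further probe set (12.51 to 12.74 over the arrays). NOTCH4, outside the set, differed by 0.05 between the clones and mock and did not pass the test.

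Among the effectors HES1 (chromosome 3), a repressor that is the classic readout of Notch activity, gave the largest difference of the 9 genes. Its log2 level was 10.25, 9.61 and 10.08 on the wild-type arrays (mean 9.98 ± 0.33 SD, n = 3) and 11.40, 11.05 and 11.05 on the mock arrays (11.17 ± 0.20 SD). It was 11.38, 10.98 and 11.15 in clone 7 (11.17 ± 0.20 SD) and 10.79, 10.97 and 11.03 in clone 8 (10.93 ± 0.12 SD). Every transfected array was above every wild-type array, as for 3.95% of all genes, and clone 7 overlapped both mock and clone 8. The 3 clone 8 arrays lay below the 3 mock arrays, as for 12.7% of all genes. Mock exceeded wild-type by a log2 difference of 1.18 ± 0.16 (2.27-fold, interval 0.84 to 1.53, limma adjusted p = 0.00151), and both clones exceeded it by 1.07 ± 0.14 (2.1-fold, interval 0.77 to 1.37, limma adjusted p = 0.000469). Leaving out 1 array at a time moved these differences between 1.0 and 1.32 and between 0.88 and 1.20, and both calls held each time. Wild-type replicate 2 was the lowest of the 12 arrays.

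The hHSS1 lines did not differ from the empty-vector line in HES1 beyond the spread. The log2 difference between both clones and mock was -0.11 ± 0.14, with an interval of -0.41 to 0.18 (limma adjusted p = 0.712). Clone 7 differed from mock by 0.00 (interval -0.34 to 0.35) and clone 8 by -0.23 (interval -0.57 to 0.11). Without the 2 doubted arrays these were 0.01 and -0.28, with limma adjusted p-values of 0.978 and 0.35. The 20 measured genes nearest to HES1 along chromosome 3, 10 on each side, had a median difference of 0.01 between mock and wild-type and of 0.01 between the clones and wild-type, and 0 and 1 of them changed.

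HEY1 (chromosome 8) and HEY2 (chromosome 6), whose proteins are repressors known from heart and vessel development, were dim. HEY1 lay between 7.33 and 7.79 and HEY2 between 7.07 and 7.55, close to the lower quartiles of the arrays (7.00 to 7.12), and no detection call came with the values. HEY1 differed by 0.20 between mock and wild-type (interval -0.04 to 0.45), by 0.16 between the clones and wild-type (interval -0.05 to 0.37) and by -0.05 between the clones and mock (interval -0.25 to 0.16). HEY2 differed by 0.07 (interval -0.13 to 0.27), 0.16 (interval -0.02 to 0.33) and 0.09 (interval -0.09 to 0.26) in the same comparisons. For genes this dim the array may not show a difference that the cells have. Over the effector list of 11 genes (HES1 to HES7, HEY1, HEY2, HEYL and NRARP), HES1 was the 1 gene to pass the test against wild-type. The other 10 differed by 0.00 to 0.20 between mock and wild-type, with 2 at an unadjusted p under 0.05, and by 0.06 to 0.18 between the clones and wild-type, with 4. Over all genes, 2.24% and 9.95% passed the adjusted p, a stricter limit, and the share at the unadjusted limit is not given. NRARP, a feedback inhibitor made in response to Notch signalling, differed by 0.14 and 0.13, and HES5, a HES gene known from neural progenitors, by 0.02 and 0.10. Of 7 measured genes that HES1 is known to repress in other systems, among them CDKN1B and CDKN1C, 0 passed the limma adjusted p in these 2 comparisons, with 0 and 1 at an unadjusted p under 0.05, and their differences from wild-type lay between -0.03 and 0.07 in mock and between -0.25 and 0.09 in the clones.

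Between clone 8 and clone 7 as labelled, 0 of the 9 Notch genes changed, as did 0.0% of all genes in the limma fit (0 of 18417, with 1328 genes, and 0 of the 9, at an unadjusted p under 0.05). With the doubted arrays left out, 3.35% of all genes changed and 17.2% passed the adjusted p alone, while 0 of the 9 changed and 2 passed the adjusted p alone, NOTCH1 and JAG1 in opposite directions.

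The wider pathway was followed in 9 lists of 77 genes by role, of which 71 had a probe set of their own. Between the clones and mock 0 of the 71 changed (limma, 13 at an unadjusted p under 0.05), against 0.728% of all genes, and 9 (12.7%, against 6.38% of all genes) passed the adjusted p alone, 6 higher and 3 lower, with a median log2 difference of 0.04 against 0.01 over all genes. JAG1 and DLL1 are among these 9, and 3 belong to gamma-secretase, the protease complex that frees the Notch intracellular domain. Its catalytic subunit gene PSEN2 was lower in the clones than in mock by -0.34 ± 0.06 (limma adjusted p = 0.00845), at 9.44 to 9.60 on the clone arrays and 9.82 to 9.87 on the mock arrays. The subunit genes PSENEN and NCSTN were higher, by 0.29 ± 0.07 (limma adjusted p = 0.0288) and 0.18 ± 0.05 (limma adjusted p = 0.0469). Of the 12 fits that left out 1 array, the call of NCSTN was lost in 10, those other than without clone 8 replicate 1 or 2 (limma adjusted p up to 0.203), that of PSENEN in the 5 without a mock replicate or clone 7 replicate 1 or 2 (up to 0.14), and that of PSEN2 in the 2 without mock replicate 1 or 2 (up to 0.0594). The 20 neighbours of PSEN2 on chromosome 1 had a median of -0.12 in the same comparison, and 6 of them were lower at the adjusted p alone. Relative to wild-type, PSENEN differed by -0.05 in the clones (limma adjusted p = 0.7) and by -0.34 in mock (limma adjusted p = 0.0524), so that mock stood lowest. PSEN2 differed by -0.18 in the clones (limma adjusted p = 0.0895) and by 0.15 in mock. NCSTN was higher than wild-type in the clones by 0.22 (limma adjusted p = 0.0161).

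**Figure D4:**
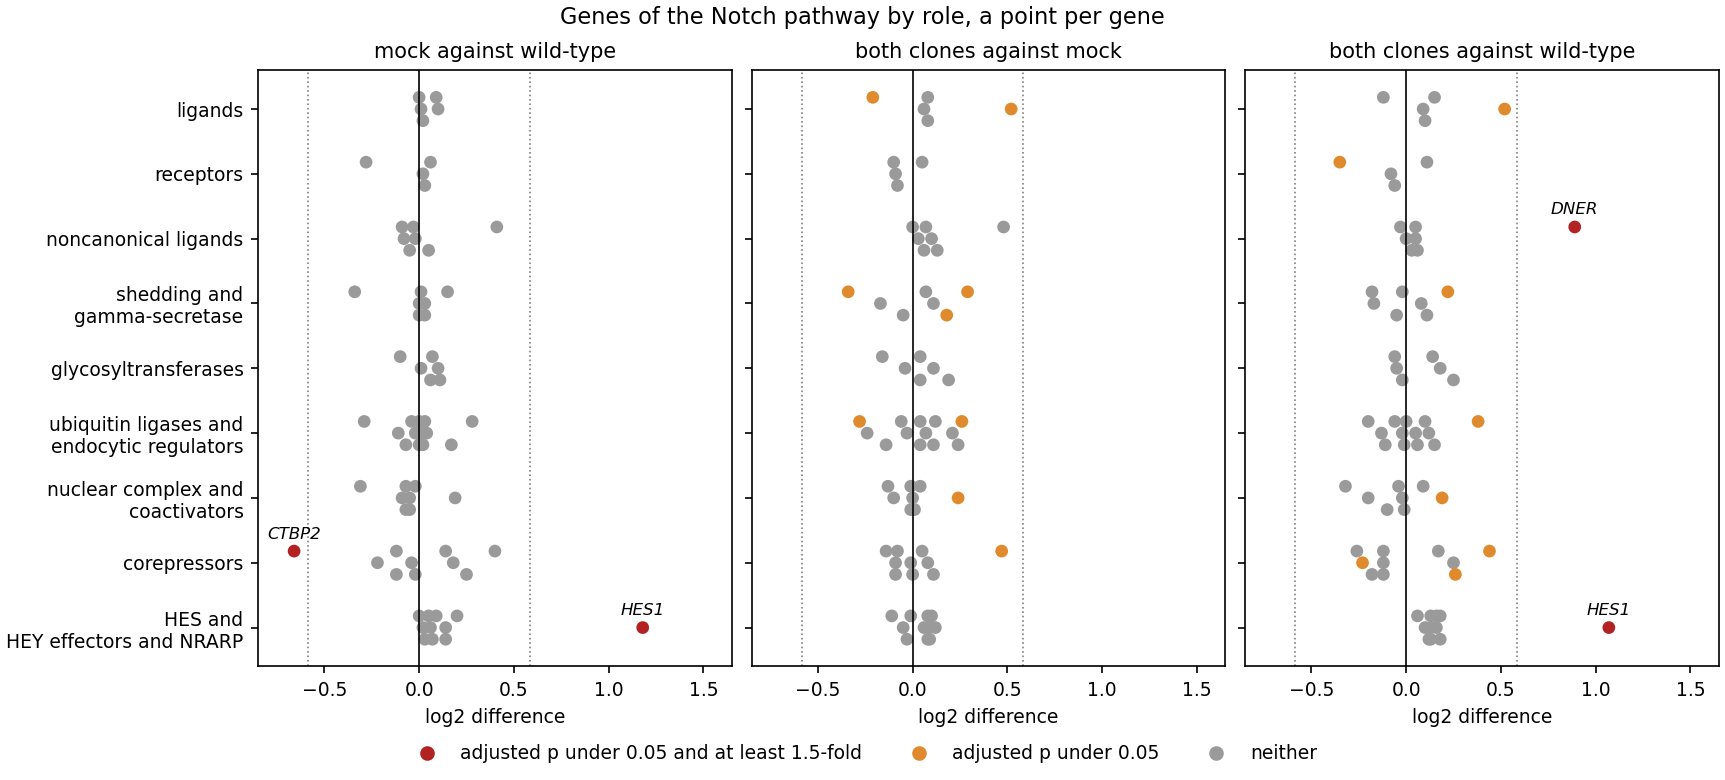
Log2 difference (x axis) of the 71 measured Notch pathway genes by role (y axis), a point per gene, in 3 comparisons. Dotted lines mark 1.5-fold and colours mark which limits a gene passed. Between the clones and mock 0 genes passed both limits, HES1 passed them in both comparisons with wild-type, CTBP2 in mock and DNER in the clones.

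The ubiquitin ligase genes DTX3 and DTX3L moved in opposite directions between the clones and mock, by 0.26 ± 0.07 (limma adjusted p = 0.0334) and -0.28 ± 0.08 (limma adjusted p = 0.0478), and the acetyltransferase coactivator KAT2A was higher by 0.24 ± 0.05 (limma adjusted p = 0.0145). Leaving out 1 array, the call of DTX3L was lost in the 9 fits without any wild-type, mock or clone 7 replicate (limma adjusted p up to 0.218). That of DTX3 was lost in 7, without wild-type replicate 1 or 3, any mock replicate or clone 7 replicate 1 or 2 (up to 0.179), and that of KAT2A in the 3 without a mock replicate (up to 0.0868). Relative to wild-type, DTX3L differed by -0.01 in the clones (limma adjusted p = 0.969) and by 0.28 in mock, so that mock stood highest. DTX3 differed by 0.15 in the clones (limma adjusted p = 0.18) and by -0.11 in mock. KAT2A was higher than wild-type in the clones by 0.19 (limma adjusted p = 0.0345). The corepressor CTBP2 (chromosome 10) was higher in the clones than in mock by 0.47 ± 0.06 (1.39-fold, limma adjusted p = 0.000548). It was lower in mock than in wild-type by -0.66 ± 0.06 (1.58-fold, limma adjusted p = 0.000168), with 11.27 to 11.32 on the wild-type arrays, 10.62 to 10.69 on the mock arrays and 11.00 to 11.20 on the clone arrays, so that mock stood lowest. A further, dimmer probe set of CTBP2 gave group means of 9.78, 9.41, 9.70 and 9.71 for wild-type, mock, clone 7 and clone 8. The 20 neighbours of CTBP2 had median differences of 0.40 and -0.26 in these 2 comparisons, with 6 changed in each. Between mock and wild-type CTBP2 and HES1 were the 2 pathway genes of 71 that changed, and the 2 that passed the adjusted p alone, where 0.673% and 2.24% of all genes did.

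Against wild-type, 2 pathway genes changed in the clones, HES1 and DNER, where 1.58% of all genes did, and 10 (14.1%, against 9.95% of all genes) passed the adjusted p alone, 8 higher and 2 lower. DNER (chromosome 2) encodes a neuronal transmembrane protein described as a noncanonical Notch ligand. It was 10.17, 10.33 and 10.30 in wild-type, 10.77, 10.66 and 10.61 in mock, 11.75, 11.73 and 10.65 in clone 7, and 10.55, 10.62 and 11.67 in clone 8, so that 3 clone arrays were high and 3 lay at the level of mock. The clones exceeded wild-type by 0.89 ± 0.26 (1.86-fold, limma adjusted p = 0.0492), a call lost in 8 of the 12 fits that left out 1 array, those without any wild-type or mock replicate or clone 7 replicate 1 or 2. Without the 2 doubted arrays DNER was higher in clone 7 than in mock by 1.06 ± 0.07 (2.08-fold, limma adjusted p = 5.65e-06) and lower in clone 8 than in clone 7 by -1.16 ± 0.08 (2.23-fold, limma adjusted p = 2.72e-06). MAML2, a Mastermind coactivator, and MFAP5, a microfibril protein reported to bind Jagged1, were the other 2 of 3 pathway genes that changed between the clones in that fit, by -0.78 and 0.71. They were named after their values were seen, and neither passed the test with the arrays as labelled. The corepressors TLE1 and TLE2 of the Groucho family, partners of HES proteins, were higher in the clones than in wild-type by 0.44 ± 0.10 and 0.26 ± 0.06 (limma adjusted p = 0.0131 and 0.0232), TLE4 was lower by -0.23 ± 0.05 (limma adjusted p = 0.0165), and the ubiquitin ligase gene DTX4 was higher by 0.38 ± 0.07 (limma adjusted p = 0.00383). The DTX4 call held in each fit that left out 1 array. The TLE1 call was lost without wild-type replicate 2 or 3 (limma adjusted p up to 0.0727), the TLE2 call without these or clone 7 replicate 1 (up to 0.147), and the TLE4 call without any wild-type replicate (up to 0.0852).

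RBPJ itself, through which the receptors act, differed by 0.19 between mock and wild-type (interval -0.10 to 0.47) and by -0.10 between the clones and mock (interval -0.34 to 0.15). The 6 glycosyltransferases that tune ligand binding, such as LFNG and POFUT1, gave differences of -0.16 to 0.19 between the clones and mock. In a list of 6 related helix-loop-helix repressors and inhibitors outside the pathway, BHLHE41, a repressor known from the circadian clock, was higher in the clones by 0.49 ± 0.05 against mock (1.4-fold, limma adjusted p = 0.000416) and by 0.58 ± 0.05 against wild-type (1.49-fold, limma adjusted p = 5.9e-05). Its 6 clone arrays, at 9.22 to 9.37, lay above the 6 control arrays at 8.64 to 8.84, as did those of 2.55% of all genes. ID3, an inhibitor of helix-loop-helix factors, was higher than in wild-type in mock by 0.41 ± 0.07 (limma adjusted p = 0.00885, and 0.0548 without mock replicate 1) and in the clones by 0.52 ± 0.06 (limma adjusted p = 0.000253), and differed between the clones and mock by 0.11 without passing the test.

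Across the 12 arrays the genes whose levels ran most like HES1 were RARB, OGFRL1, PKIA, PPM1D and PCDH7, with Pearson r from 0.936 to 0.918 among 15690 genes above the dim range. For JAG1 they were ATP9A, COL12A1, DUSP1, BFSP1 and ACY1 (0.977 to 0.965), for NOTCH3 RTKN, PKN3, PRAME, WDR62 and ARHGEF40 (0.977 to 0.954), and for HEY1 VSIR, NFE2, C1orf53, SNX18 and CCDC88C (0.899 to 0.862). These are the highest of many values over 12 arrays in 4 groups, which share the differences between lines, and are given as a description. No gene of the pathway lists was among them.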

How the data were processed

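RNA of 12 cultures was read on 1-colour Affymetrix arrays. The authors deposited a log2 level for each probe set on each array, which they had summarized and normalized. The submitters' processing notes name Partek, without a version, and a normalization method was not given in the sources used here. Arrays have no read depth, and their number limits the precision. Of 33297 probe sets, 19460 had a single symbol, and the brightest by mean over the arrays was kept for each of 18417 genes. No further normalization was applied, since array medians lay between 8.60 and 8.67. A model with 1 mean per group was fitted to all arrays with limma 3.58.1 in R 4.3.3 (lmFit, contrasts.fit, eBayes), for 6 comparisons, and was tested on simulated data. Replicates are described by the labels as biological. Replicate numbers were not used as pairs. Members, lists and motifs were chosen with earlier results of these data known. Beyond the members, named genes were those of the pathway, inhibitor and HES1-repressed lists that changed in any comparison, otherwise the 12 of lowest adjusted p in the clones against mock, of which those past the test are described. Genes past the adjusted p in another comparison were added after their values were seen. Alternatives were quantile normalization, centring of arrays, leaving out dim genes, the mean of all probe sets of a gene, a replicate block, a trended and robust variance, array weights, fits on the compared groups only, and leaving out each array. Leaving out the 2 doubted arrays and treating the 6 clone arrays as 1 group were added after seeing the data. Figures were drawn with matplotlib 3.10.9 and tables handled with pandas 2.3.3.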

Additional observations from a re-analysis of the deposited data

How the results depend on the processing

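HES1 kept its call against wild-type, and stayed without one against mock, in each alternative run, with differences between the clones and mock of -0.17 to 0.00. No result changed direction past its limit. Deviations of same-numbered arrays from their group means correlated at -0.832 to 0.446. The lowest value was between the 2 doubted arrays, which shift both clone means, so values with clone arrays cannot decide on pairing. Between wild-type and mock arrays the values were -0.262, -0.067 and -0.152 for replicates 1, 2 and 3. With the replicate block, 1 in place of 2 Notch genes passed the adjusted p between the clones and mock, 4 in place of 9 pathway genes did, and 1 in place of 2 pathway genes changed between the clones and wild-type. Fits on the compared groups only gave the same 1, 4 and 1, and also 2 in place of 1 Notch gene and 11 in place of 2 pathway genes at the adjusted p between mock and wild-type, 5 in place of 10 pathway genes for the clones and wild-type, and 0 in place of 4 for clone 8 and mock. Trended and robust variance, and the 6 clone arrays as 1 group, each gave 1 in place of 2 changed pathway genes between the clones and wild-type. The mean of all probe sets gave 1 in place of 2 between mock and wild-type. At the adjusted p alone, array weights gave 2 in place of 1 Notch gene for clone 7 against mock and for mock against wild-type, and 9 pathway genes in each of these, with 1 for clone 8. Quantile normalization gave 2 Notch genes for clone 7 and 4 pathway genes for mock against wild-type, and trended variance 4 for the latter. Without the 2 doubted arrays, 3 Notch genes and 13 pathway genes passed the adjusted p in clone 7 relative to mock, 1 and 9 in clone 8 relative to mock, 2 and 14 between clone 8 and clone 7, and 2 and 10 between mock and wild-type, with 16 pathway genes in the clones relative to wild-type, while 2 pathway genes changed in clone 7 and 3 between the clones. Over all genes, 1175 passed the adjusted p between the clones and mock, against 754 with the replicate block, 675 on the compared groups only, 2029 with array weights and 2416 without the doubted arrays. For mock and wild-type the 413 genes became 259, 1951, 1708 and 1302 in these fits. The cause of these shifts was not tested.

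Leaving out 1 array gave 0 to 2 Notch genes at the adjusted p between the clones and mock (0 without mock replicate 2 or 3), 0 to 2 for clone 7 (0 without mock replicate 2 or 3 or clone 7 replicate 1 or 2, and 2 without clone 8 replicate 2 or 3), and 1 to 2 for mock against wild-type (2 without clone 8 replicate 3). It gave 0 to 1 changed Notch genes and 0 to 2 changed pathway genes for clone 7 (0 without mock replicate 2 or 3 or clone 7 replicate 1 or 2, and 2 pathway genes without clone 7 replicate 3). Changed pathway genes numbered 1 to 2 for the clones against wild-type (1 without any wild-type or mock replicate or clone 7 replicate 1 or 2). At the adjusted p alone, pathway genes numbered 1 to 12 for the clones against mock, with 1 or 2 without a mock replicate, 4 without clone 7 replicate 1 or 2 and 5 without wild-type replicate 1 or 3. They numbered 1 to 5 for clone 7, with 1 or 2 without any mock replicate or clone 7 replicate 1 or 2, and 1 to 15 for clone 8, with 1 without a mock replicate, 2 without clone 8 replicate 1 and 15 without clone 8 replicate 2. They numbered 2 to 6 for mock against wild-type (6 without clone 8 replicate 1 or 3) and 3 to 19 for the clones against wild-type (3 without wild-type replicate 3, 5 without wild-type replicate 2 and 19 without clone 8 replicate 2). HEY1 and HEY2 lie close above the lower quartile of the arrays, and no background level was given with the values.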
